A study of Bos taurus with 16 samples.

Results

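Amino acid transporters of the families SLC1, SLC3, SLC6, SLC7, SLC36, SLC38 and SLC43 were followed through bovine development in vivo from the mature oocyte to the blastocyst. They were taken as every locus of the deposited table whose gene name begins with SLC1A, SLC3A, SLC6A, SLC7A, SLC36A, SLC38A or SLC43A, which gave 63 of 27393 loci with 60 gene names. The choice rests on names alone, so it also holds loci that move other cargo, such as SLC6A8 for creatine, SLC6A4 for serotonin and SLC43A3 for purine bases. It also holds SLC7A6OS, the neighbour of SLC7A6 on the opposite strand, which does not encode a transporter.

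The 16 samples were single bovine (Bos taurus) oocytes or embryos, 2 at each of 8 stages. The stages were mature oocytes at metaphase II (MII), 2-, 4-, 8- and 16-cell embryos (2C, 4C, 8C and 16C), early morulae (EM), compact morulae (CM) and blastocysts (BL). All developed in vivo, without a treatment or genotype in the labels, and the RNA of each was amplified in 2 rounds before SOLiD sequencing. The labels do not say whether the 2 samples of a stage came from different animals, so p-values measure only the spread between these samples. Samples are numbered as the labels number them, and pairs of values below are given in the order replicate 1, replicate 2. The study places the embryonic genome activation (EGA) of in vivo embryos between 4C and 8C. Accordingly MII, 2C and 4C (6 samples) are called before EGA and the later stages (10 samples) after EGA.

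Amino acid transporters carry amino acids across the plasma membrane or out of lysosomes. Some use the sodium gradient to bring amino acids in, others exchange 1 amino acid for another, and the heteromeric transporters consist of a heavy chain of the SLC3 family that brings a catalytic light chain of the SLC7 family to the membrane. Embryos before implantation take amino acids from oviductal and uterine fluid, and use them for protein synthesis, as osmolytes and as a signal to the kinase mTOR.

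Levels are given in CPM, the reads on a locus per 1000000 reads of the sample. They are not divided by transcript length, so they compare 1 locus between samples and do not rank loci by molecules. Samples held from 607672 to 3379426 reads. A count of 0 allows up to 3 reads, which is between 0.888 and 4.94 CPM depending on the sample. Such limits cover counting error only, because amplified copies of a molecule were not told apart. Differences were tested with limma after adding 1 to the deposited values and taking log2, a scale that understates the change of low loci. In single embryos a change of this kind cannot tell fewer cells of a type from less RNA per cell.

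Some samples stood apart. Replicate 2 of 8C held 1562 CPM on 11 oocyte marker genes, against 26.0 CPM in replicate 1 and between 3165 and 10269 CPM before EGA. H1FOO (XLOC_037459) held 1347 CPM of it in 8C replicate 2 and most of it in each sample before EGA. The next highest locus in 8C replicate 2 was ZAR1L, at 62.5 CPM. On 8 trophectoderm marker genes, replicate 2 of 16C held 517 CPM and replicate 1 124 CPM, whereas the blastocysts held between 1439.9 and 1486 CPM on them. In 16C replicate 2 most of the sum was on DAB2 (207 CPM), KRT18 (114 CPM) and KRT8 (102 CPM). KRT19 and TFAP2A had no read there, against 124 and 109 CPM and 49.1 and 41.1 CPM in blastocysts. Over loci, 5 of the 16 samples correlated most closely with a sample of another stage, namely both 2C embryos, both 8C embryos and CM replicate 2. Replicate 1 of 2C was closest to MII replicate 2 (Pearson's r 0.866, against 0.836 with the other 2C embryo), and the 8C pair had the lowest correlation within a stage (0.747). Cumulus cell markers ranged from 575 to 1998 CPM before EGA and from 385 to 874 CPM after it, and STAR held most of that sum in every sample. HAS2 held between 68.7 and 298 CPM before EGA and at most 18.3 CPM after it. PTGS2 held 277 and 216 CPM in blastocysts, 67.5 CPM in 16C replicate 2 and at most 13.3 CPM elsewhere. CYP19A1 had 217 and 38 reads on its 2 loci in all samples together, FSHR 53 and 4, and each of the other loci on the list from 0 (AMH) to 12 (PTX3). The oocyte gene BMP15 is also listed at 0 in every sample, and the trophectoderm gene CDX2 had 1 read. On 7 inner cell mass marker genes the samples held between 2.19 and 14.5 CPM before EGA and between 194 and 929 CPM after it.

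Of the 63 loci, 45 had reads and 18 are listed at 0 in every sample (28.6%, against 33.1% of all loci). Among the 18 are SLC38A1, the taurine transporter SLC6A6, SLC6A19, SLC6A18, SLC6A12, SLC6A13, SLC6A2, SLC6A3, SLC6A7, SLC7A13, SLC7A14 and 1 of the loci named SLC6A9. The other 6, SLC1A6, SLC7A10, SLC6A14, SLC36A4, SLC38A5 and the second locus of SLC6A11, lie in a stretch of 2578 consecutive locus numbers that are all listed at 0. BMP15 lies in the same stretch, so a 0 there is given as listed and is not read as absence.

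A stage mean of at least 10 CPM was reached by 25 loci. The remaining 20 loci with reads had between 1 and 92 reads in all 16 samples together and no stage mean above 8.82 CPM. They included the heavy chain SLC3A2, SLC1A2, SLC1A4, SLC1A7, SLC6A9, SLC6A11, SLC6A15, SLC6A16, SLC6A17, SLC7A1, SLC7A9, SLC7A11, SLC36A2, SLC36A3, SLC38A3, SLC38A4, SLC38A10, SLC43A2 and SLC43A3. Blastocysts were the stage of the highest mean for 11 of the 25 loci, 8C and 16C for 3 each, 2C for 3, EM for 2, and MII, 4C and CM for 1 each. SLC7A4, SLC43A1 and SLC38A7 reached the minimum of 10 CPM in blastocysts alone, and SLC38A6 in 2C alone. These counts therefore follow in part from the choice of loci. No share over all loci was computed for them, so they are not read as a trait of the transporters.

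**Figure D1:**
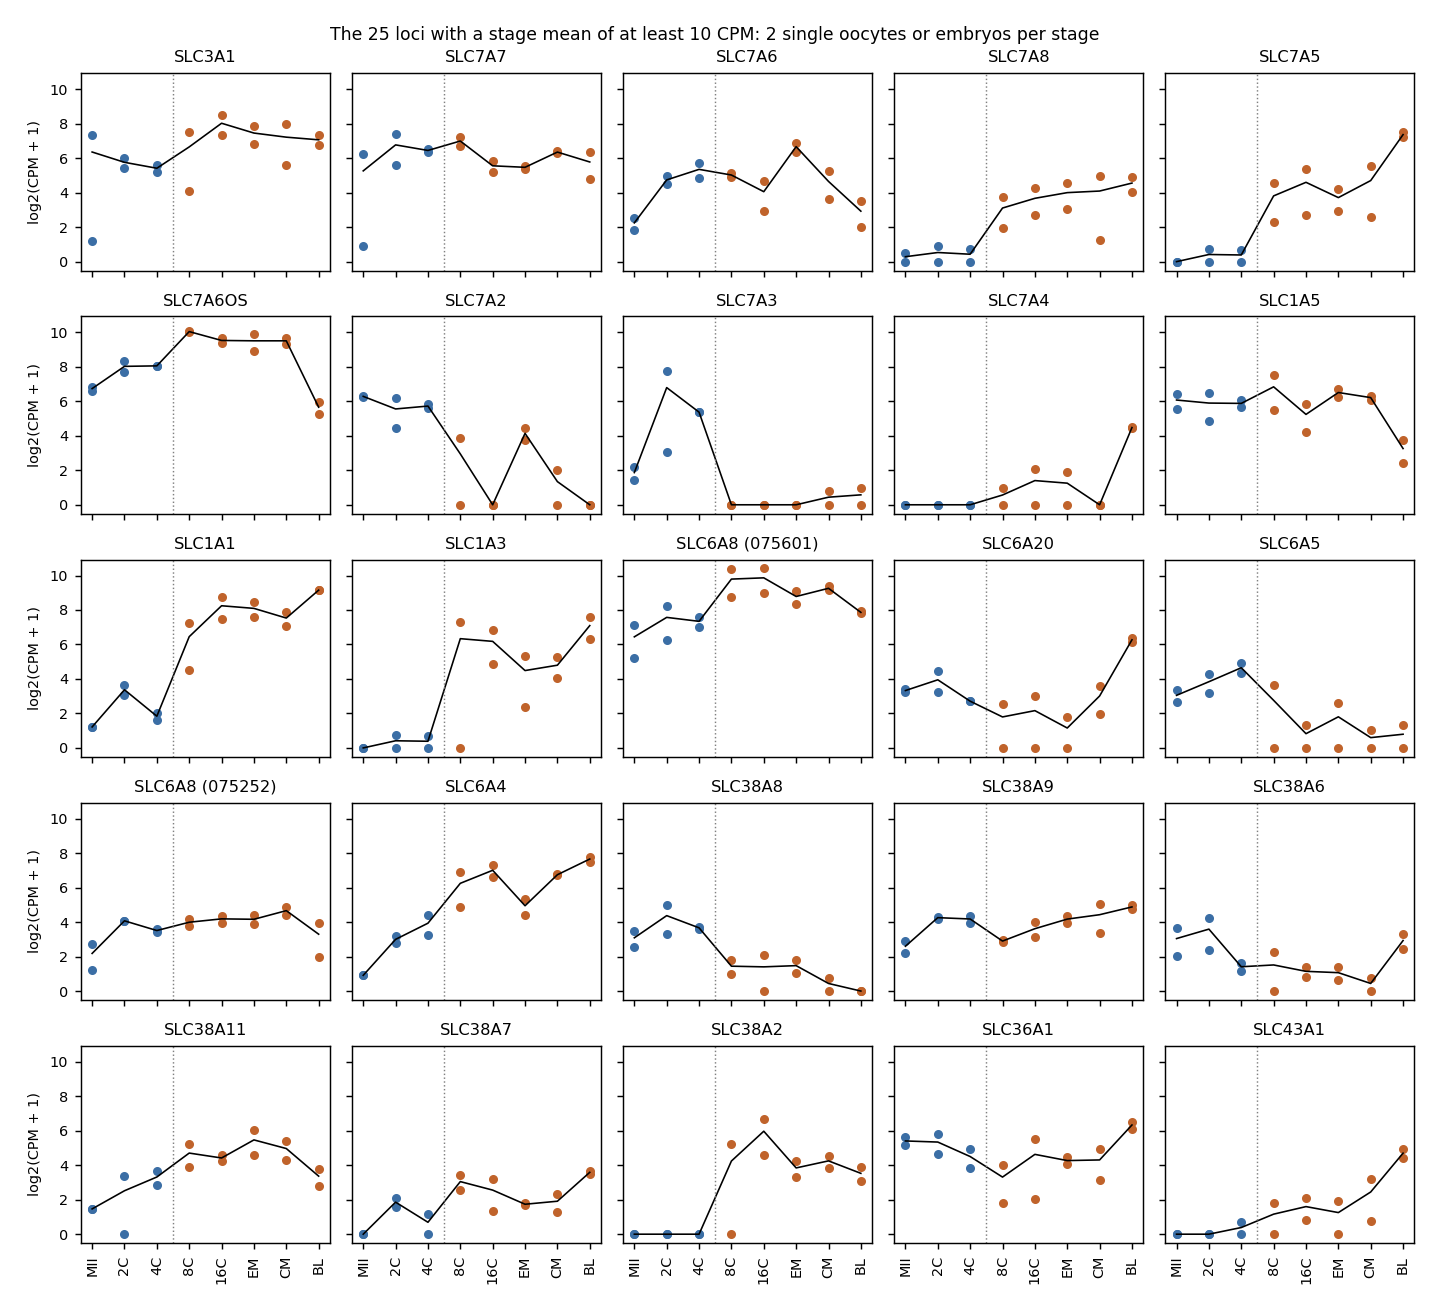
Levels of the 25 loci with a stage mean of at least 10 CPM, as log2(CPM + 1), in 2 samples (points) at each of 8 stages, with a line through the stage means and a dotted line at EGA (blue before, orange after). SLC7A2 and SLC7A3 sit high on the left of the dotted line, SLC1A1, SLC1A3, SLC7A5 and SLC38A2 on its right, and SLC7A4, SLC6A20 and SLC43A1 reach their highest points in blastocysts.

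Summed over the 63 loci, the samples before EGA held 347 to 1253 CPM and those after it 1504 to 3348 CPM. Without SLC7A6OS the sums were 249 to 936 and 943 to 2325 CPM. SLC6A8 took between 12.6% of the reads on these 62 loci in blastocysts and 51.5% in 8C embryos, and in blastocysts SLC1A1 took 30.8%. The cationic transporters and their relatives went the other way, with 112 ± 60.2 CPM before EGA (mean ± SD, n = 6) and 10.1 ± 9.85 CPM after it (n = 10).

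**Figure D2:**
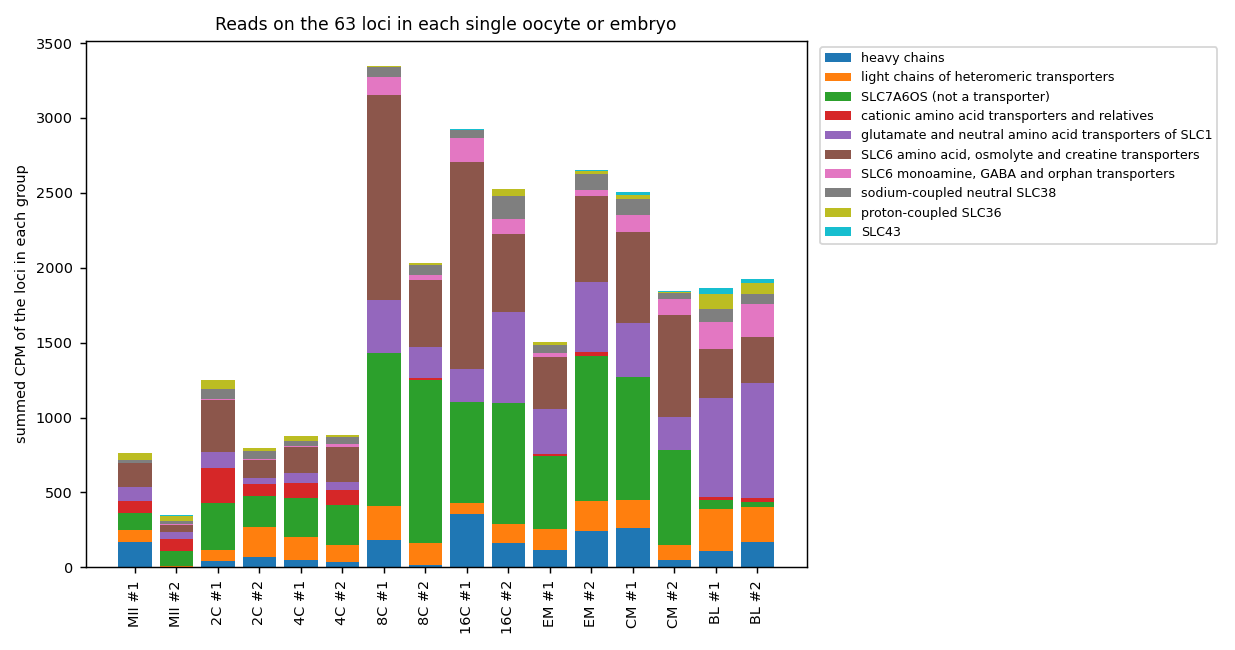
Summed CPM of the 63 loci in each of the 16 samples, stacked by transporter group from 0. The lowest sum is that of MII replicate 2 (347 CPM) and the highest that of 8C replicate 1 (3348 CPM), and the red segment of the cationic transporters is thin or missing after 4C.

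Enough reads for the model of 8 stages were present on 29 of the 63 loci. Of these, 21 differed between stages at the threshold of 0.05 for the adjusted p (72.4%, against 66.7% of all 9670 loci tested). The 8 without one were SLC3A1 (limma, adjusted p = 0.624), SLC7A7 (0.335), SLC38A9 (0.242), the second locus of SLC6A8 (0.209), SLC3A2, SLC7A9, SLC38A10 and SLC43A2.

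Between the periods before and after EGA, 19 of the loci had enough reads for a test, and 10 passed it (52.6%, against 66.8% of all loci tested). The model of this test held the period alone and no term for stage. Samples of the same stage thus counted as separate samples of a period, although stages within a period can differ. After EGA 8 were higher (42.1%, against 36.9% of all 6910 loci tested) and 2 were lower (10.5%, against 29.9%). SLC1A1, SLC1A3, SLC7A5, SLC38A2, SLC6A4, SLC7A8, SLC38A11 and SLC6A8 rose, and SLC7A2 and SLC6A5 fell. The median log2 change of the 19 loci was 0.75, beside 0.23 for all loci tested. With scaling to the total reads of a sample these medians were 1.23 and 0.66, and single changes have to be set beside the median of all loci. In both scalings the median of the 19 loci was the value of SLC7A6OS, which does not encode a transporter. The measured CPM of the periods did not overlap for SLC1A1, SLC6A4, SLC7A8 and SLC7A5, which is 21.1% of the 19, against 28.1% of all loci tested. All 4 were higher after EGA, as 18.4% of all loci were, beside 9.7% that were lower without overlap. The filter on low reads asked for a minimum in at least 6 samples, the size of the smaller period. A locus read only before EGA had to reach it in all 6. For a locus read only after EGA, any 6 of 10 were enough. SLC38A2, SLC1A3, SLC7A5 and SLC7A8, with 0, 2, 2 and 5 reads before EGA, passed through the later samples alone. SLC7A3 and SLC38A8, near 0 after EGA, were kept out, as were SLC43A1, SLC7A4 and SLC38A7, low before it. They are described by their values. The shares of all loci tested come from the same filter. Without that filter 10 of 45 loci were higher (22.2%, against 18.4% of all 18318 loci with reads) and 6 lower (13.3%, against 20.2%).

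**Figure D3:**
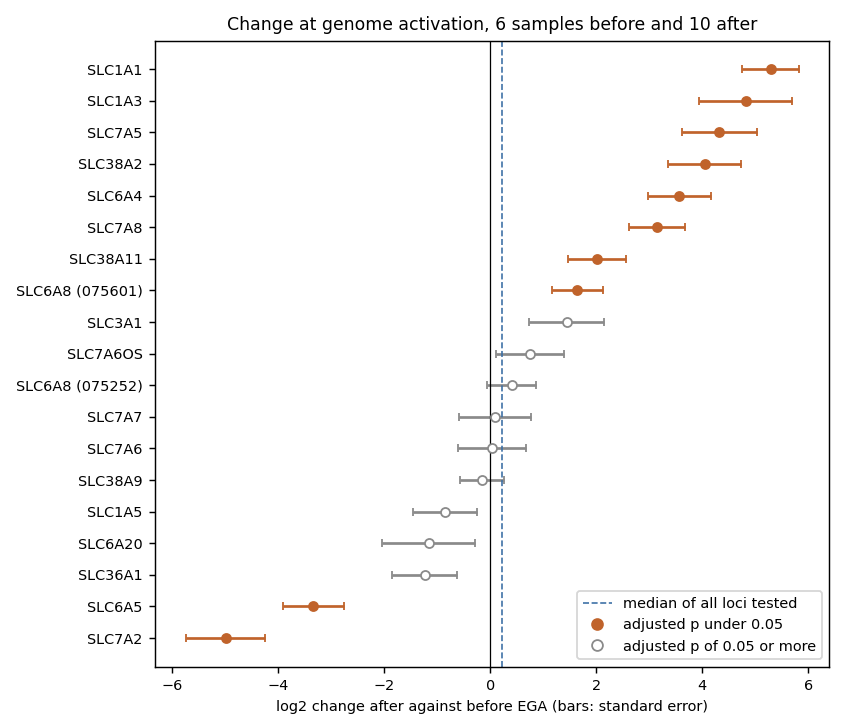
Log2 change after against before EGA (points) with its standard error (bars) for the 19 loci tested, on the log2(deposited value + 1) scale. Filled points passed an adjusted p of 0.05 and the dashed line marks the median of all loci tested. The 8 filled points on the right lie between 1.64 and 5.29, and those of SLC6A5 and SLC7A2 at -3.34 and -5.00.

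The cationic amino acid transporters, which bring in arginine, lysine and ornithine, had most of their reads before EGA. SLC7A2 (XLOC_046262), a member of this group, held 75.8 and 78.4 CPM in MII oocytes, 20.6 and 71.6 in 2C and 47.9 and 55.9 in 4C embryos. From 8C on its values were 0 and 13.5 in 8C, 0 and 0 in 16C, 12.3 and 21.0 in EM, 3.08 and 0 in CM and 0 and 0 CPM in blastocysts. The periods overlapped only where EM replicate 2 slightly exceeded 2C replicate 1. SLC7A2 fell at EGA with a log2 change of -5.00 with an SE of 0.74 (limma, adjusted p = 5.5e-06).

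SLC7A3 (XLOC_075367), another cationic transporter, held 3.55 and 1.75 CPM in MII oocytes, 213 and 7.40 in 2C and 40.3 and 40.6 in 4C embryos. The 2C embryos differed widely from each other, and the MII oocytes were low. After 4C the locus had 2 reads in 10 samples together, against 481 reads in the 6 samples before. Pooled over samples this is a ratio of 209 (95% counting interval 57.6 to 1731) in favour of the earlier stages. Of the 481 reads, 320 were in 2C replicate 1, without which the ratio was 79.5, and over all samples left out in turn it ranged from 79.5 to 379, highest without BL replicate 1 and next without CM replicate 2 (364), which held the 2 later reads. From 4C to 8C, where both 8C embryos had no read, it was at least 24.9-fold lower against a floor of 3 reads over both embryos (14.0 without 8C replicate 1 and 10.9 without 8C replicate 2). The fit gave a log2 change of -5.77 with an SE of 1.10 (limma, adjusted p = 0.00117), a size that depends on the pseudocount.

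SLC7A1, the third of the cationic transporters, had 30 reads, 15 in 2C replicate 2 and 15 in the 4C embryos, and none in the 10 samples after EGA, at least 8.69-fold lower (5.96 to 10.6 with 1 sample left out). SLC7A4 (XLOC_022153), a relative of this group whose transport activity is not established, showed the opposite order. It had no read in any sample before EGA and 0 and 0.962 CPM in 8C, 0 and 3.29 in 16C, 0 and 2.77 in EM, 0 and 0 in CM and 20.6 and 22.0 CPM in blastocysts. Both blastocysts lay above the 14 other samples.

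Among the glutamate transporters, SLC1A1 (XLOC_067313), a sodium-dependent carrier of glutamate, aspartate and cysteine, held 1.33 and 1.31 CPM in MII oocytes, 11.3 and 7.40 in 2C and 2.08 and 3.07 in 4C embryos. Later values were 151 and 22.1 in 8C, 174 and 431 in 16C, 194 and 351 in EM, 237 and 131 in CM and 566 and 569 CPM in blastocysts. The periods did not overlap, and the lowest of the later samples was 8C replicate 2, the one with oocyte markers. SLC1A1 rose at EGA with a log2 change of 5.29 with an SE of 0.53 (limma, adjusted p = 2.7e-08).

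SLC1A3 (XLOC_033695), a second carrier of glutamate and aspartate, had 2 reads in the 6 samples before EGA and 580 in the 10 after it, a pooled ratio of 334 (95% counting interval 91.9 to 2761). With 1 sample left out the ratio ranged from 243 to 587, highest without 2C replicate 1 or 4C replicate 2, which held the 2 reads. Its values after EGA were 159.6 and 0 CPM in 8C, 27.8 and 115 in 16C, 4.09 and 38.8 in EM, 37.9 and 15.7 in CM and 77.6 and 194 in blastocysts. The 8C embryos differed most, since replicate 2 had no read, which allows up to 2.89 CPM. SLC1A3 rose at EGA with a log2 change of 4.82 with an SE of 0.88 (limma, adjusted p = 6.3e-05). The step from 4C to 8C did not pass, with a log2 change of 3.50 with an SE of 1.68 (limma, adjusted p = 0.115), and turned on the 8C pair, whose 129 reads were all in replicate 1. Without replicate 1 the log2 change was -0.43 (limma, adjusted p = 0.822). Without replicate 2 it passed in limma (log2 change 7.44, adjusted p = 0.000268), and with both in edgeR (log2 change 7.83, adjusted p = 0.00699) and DESeq2 (log2 change 8.08, adjusted p = 0.00157).

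SLC1A5 (XLOC_024844), an exchanger of glutamine and other neutral amino acids, held 86.4 and 46.5 CPM in MII oocytes, 89.9 and 27.5 in 2C and 66.7 and 49.2 in 4C embryos. It did not pass the test at EGA, with a log2 change of -0.85 with an SE of 0.60 (limma, adjusted p = 0.216), which was -0.51 without BL replicate 2 and -0.38 scaled to total reads. Later it held 44.5 and 183 CPM in 8C, 17.8 and 56.0 in 16C, 105 and 75.9 in EM and 78.9 and 67.8 in CM. In blastocysts the values were 12.8 and 4.40 CPM, below all 14 other samples. The related exchanger SLC1A4 had 43 reads in all, and SLC1A2 and SLC1A7, which also carry glutamate, had 5 and 2.

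The heteromeric transporters differed by chain. The heavy chain SLC3A1 (XLOC_007161), known as the partner of SLC7A9 in the uptake of cystine and dibasic amino acids, held 161 and 1.31 CPM in MII oocytes, 41.9 and 64.5 in 2C and 47.2 and 36.3 in 4C embryos, so that the MII oocytes alone spanned the whole range before EGA. After EGA it held 183 and 16.4 in 8C, 357 and 163 in 16C, 114 and 235 in EM, 249 and 47.1 in CM and 106 and 160.0 CPM in blastocysts. Its mean was 58.7 ± 54.2 CPM before EGA and 163 ± 101 CPM after it (± SD). The log2 change of 1.44 with an SE of 0.71 (limma, adjusted p = 0.0769) did not pass the threshold. Without MII replicate 2 it was 0.72 (limma, adjusted p = 0.299), and edgeR and DESeq2 gave 0.75 and 0.93 (adjusted p = 0.321 and 0.201). It passed without MII replicate 1 (limma, log2 change 1.98, adjusted p = 0.0151), without 8C replicate 2 (limma, log2 change 1.75, adjusted p = 0.0229), without both 8C samples (limma, log2 change 1.67, adjusted p = 0.0376) and scaled to total reads (log2 change 1.87, limma adjusted p = 0.0255). SLC3A2 (XLOC_048567), the heavy chain of SLC7A5, SLC7A6, SLC7A7, SLC7A8 and SLC7A11, had 92 reads over the 16 samples and no more than 11.7 CPM in any of them.

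SLC7A5 (XLOC_024512), the light chain of the exchanger LAT1 for leucine and other large neutral amino acids, had 2 reads before EGA. After EGA it held 22.3 and 3.85 CPM in 8C, 5.41 and 41.1 in 16C, 6.54 and 17.7 in EM, 45.1 and 5.0 in CM and 182 and 147 CPM in blastocysts. Both blastocysts lay above all other samples, and among the 16C embryos the higher value was that of replicate 2, which also had the higher sum of trophectoderm markers. Whether these markers and SLC7A5 stem from the same cells was not tested. Not all loci with their highest mean in blastocysts had this order at 16C, since SLC6A20 and SLC6A4 were higher in replicate 1. SLC7A5 rose at EGA, with a pooled ratio of 247 (95% counting interval 68.1 to 2049) (156 to 435 with 1 sample left out, lowest without BL replicate 1 and highest without 2C replicate 1) and a log2 change of 4.32 with an SE of 0.71 (limma, adjusted p = 1.8e-05).

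SLC7A8 (XLOC_003534), the light chain of the related exchanger LAT2, held 0 and 0.438 CPM in MII oocytes, 0 and 0.888 in 2C and 0.694 and 0 in 4C embryos. Later it held 12.4 and 2.89 CPM in 8C, 5.41 and 18.1 in 16C, 7.35 and 22.7 in EM, 30.8 and 1.43 in CM and 15.7 and 29.4 in blastocysts. Replicates differed several-fold at most of these stages. The measured values of the 10 later samples lay above those of the 6 earlier ones, but the lowest of them, CM replicate 2, rested on 2 reads (1.43 CPM). No read allows up to 2.00 CPM in 2C replicate 1 and 1.84 CPM in 4C replicate 2, so at this depth the order of these samples is not settled. SLC7A8 rose at EGA with a log2 change of 3.15 with an SE of 0.53 (limma, adjusted p = 2.4e-05).

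SLC7A7 and SLC7A6 encode light chains that exchange cationic for neutral amino acids. SLC7A7 (XLOC_003544) held 74.0 and 0.876 CPM in MII oocytes, 47.9 and 169 in 2C and 91.7 and 81.1 in 4C embryos. Later it held 148 and 105 in 8C, 36.3 and 56.0 in 16C, 45.8 and 41.0 in EM, 78.9 and 82.8 in CM and 81.5 and 26.4 CPM in blastocysts. Apart from 1 MII oocyte it was well above 1 read in every sample, and it did not pass at EGA (log2 change 0.08, SE 0.68, limma adjusted p = 0.921). SLC7A6 (XLOC_023956) held 4.87 and 2.63 CPM in MII oocytes, 21.3 and 30.2 in 2C and 52.1 and 27.7 in 4C embryos. From 8C on it held 28.5 and 34.6 in 8C, 24.7 and 6.58 in 16C, 82.5 and 119 in EM, 36.9 and 11.4 in CM and 2.95 and 10.3 CPM in blastocysts, and stages differed (limma, adjusted p = 0.00998). Both early morulae lay above the 14 other samples, and over the periods the log2 change of 0.04 with an SE of 0.64 (limma, adjusted p = 0.96) did not pass. SLC7A9 had 44 reads in all, and SLC7A11, the light chain of the cystine and glutamate exchanger, had 2.

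SLC7A6OS (XLOC_024637) overlaps the end of SLC7A6 in the RefSeq gene table of assembly ARS-UCD2.0, and the sources used here do not say that reads were counted by strand, so reads of these neighbours may not be told apart. It held 114 and 97.7 CPM in MII oocytes, 317 and 204 in 2C and 265 and 266 in 4C embryos. In 8C the values were 1023 and 1088, in 16C 671 and 806, in EM 485 and 972, in CM 819 and 637 and in blastocysts 60.9 and 38.2 CPM. All samples from 8C to CM lay above the earlier ones, and the blastocysts fell below every other sample. With the low blastocysts among the later samples, the periods did not differ by the test in limma (log2 change 0.75, SE 0.65, limma adjusted p = 0.314) and did in DESeq2 (log2 change 1.32, adjusted p = 0.0255). In limma the change was 1.14 without BL replicate 2 (adjusted p = 0.0566), 1.23 scaled to total reads (adjusted p = 0.0958) and 0.38 without both 8C samples (adjusted p = 0.622), and in edgeR it was 1.18 (adjusted p = 0.0762).

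In the SLC6 family, SLC6A8 (XLOC_075601), the creatine transporter, held 136 and 35.5 CPM in MII oocytes, 302 and 76.9 in 2C and 126 and 196 in 4C embryos. It reached 1345 and 426 in 8C and 1358 and 505 in 16C, and held 331 and 548 in EM, 564 and 659 in CM and 242 and 222 CPM in blastocysts. SLC6A8 rose at EGA with a log2 change of 1.64 with an SE of 0.49 (limma, adjusted p = 0.00533), although the blastocysts overlapped with the 2C embryos. A second locus of this name (XLOC_075252) held 5.76 and 1.31 CPM in MII oocytes, 16.0 and 15.7 in 2C and 9.72 and 11.1 in 4C embryos, and later 17.3 and 12.5 in 8C, 14.7 and 19.7 in 16C, 13.9 and 19.9 in EM, 28.7 and 20.0 in CM and 14.7 and 2.94 CPM in blastocysts. It was low throughout and did not pass (log2 change 0.41, SE 0.46, limma adjusted p = 0.443). The log2 change was 0.082 without MII replicate 2, 0.64 without BL replicate 2 and 0.81 scaled to total reads, none of which passed, and 0.26 in edgeR. How reads were shared between both loci is not given in the sources used here.

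SLC6A4 (XLOC_027739), the serotonin transporter, held 0.886 and 0.876 CPM in MII oocytes, 5.99 and 7.99 in 2C and 8.33 and 20.3 in 4C embryos. After EGA it held 121 and 28.9 in 8C, 156 and 98.7 in 16C, 20.4 and 39.3 in EM, 109 and 104 in CM and 182 and 220.2 CPM in blastocysts. The periods did not overlap, but the highest sample before EGA, 4C replicate 2, and the lowest after it, EM replicate 1, differed by less than 1 CPM. SLC6A4 rose with a log2 change of 3.57 with an SE of 0.60 (limma, adjusted p = 2.3e-05).

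Of the glycine transporters, SLC6A5 (XLOC_048768) was found before EGA, with 9.31 and 5.26 CPM in MII oocytes, 7.99 and 18.6 in 2C and 29.2 and 19.0 in 4C embryos. Later values were 0 and 11.5 in 8C, 1.55 and 0 in 16C, 0 and 4.98 in EM, 1.03 and 0 in CM and 0 and 1.47 CPM in blastocysts. The highest later sample was 8C replicate 2, which held oocyte markers, and it overlapped with MII and 2C samples. SLC6A5 fell at EGA with a log2 change of -3.34 with an SE of 0.57 (limma, adjusted p = 2.8e-05). SLC6A9, the other glycine transporter, had 10 reads in all on 1 of its loci.

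SLC6A20 (XLOC_037441), a transporter of proline and other imino acids, held 9.75 and 8.33 CPM in MII oocytes, 20.6 and 8.29 in 2C and 5.56 and 5.53 in 4C embryos. After EGA it held 4.95 and 0 CPM in 8C, 6.95 and 0 in 16C, 2.45 and 0 in EM, 11.3 and 2.86 in CM and 68.8 and 83.7 in blastocysts, where both samples exceeded the 14 others. Stages differed (limma, adjusted p = 0.00927), and the periods did not by the test (log2 change -1.17, SE 0.88, limma adjusted p = 0.247), in which the sign differed between tools (-0.49 with a pseudocount of 5, 0.18 in edgeR and 0.40 in DESeq2).

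The SLC38 family holds sodium-coupled carriers of glutamine, alanine and other neutral amino acids. SLC38A2 (XLOC_056665), known for its induction when amino acids are scarce, had no read in the 6 samples before EGA and was at least 85.5-fold higher after it against a floor of 3 reads over the group (62.4 to 94.6 with 1 sample left out). Its values were 35.9 and 0 CPM in 8C, 23.2 and 100.4 in 16C, 8.99 and 17.7 in EM, 22.6 and 13.6 in CM and 13.8 and 7.34 in blastocysts. As with SLC1A3, 8C replicate 2 had no read, so that all 29 reads at 8C were in replicate 1. SLC38A2 passed the filter on low reads through the samples after EGA alone. The fitted log2 change of 4.04 with an SE of 0.68 (limma, adjusted p = 2.4e-05), whose size depends on the pseudocount, passed at EGA, and that from 4C to 8C did not (log2 change 2.87, SE 1.27, limma adjusted p = 0.0895). The latter was 0 without 8C replicate 1 (limma, adjusted p = 1) and 1.76 with a pseudocount of 5 (limma, adjusted p = 0.0925). It passed without 8C replicate 2 in limma (log2 change 5.73, adjusted p = 0.000326) and with all samples in edgeR and DESeq2 (adjusted p = 0.0113 and 0.00457). The loci numbered directly before and after it, SLC38A4 and SLC38A1, had 1 read and none.

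SLC38A11 (XLOC_030000), a family member of unclear function, held 1.77 and 1.75 CPM in MII oocytes, 0 and 9.47 in 2C and 6.25 and 11.7 in 4C embryos. After EGA it held 13.6 and 36.6 in 8C, 17.8 and 23.0 in 16C, 22.9 and 63.7 in EM, 42.0 and 18.6 in CM and 12.8 and 5.87 CPM in blastocysts. The periods overlapped, and SLC38A11 rose with a log2 change of 2.01 with an SE of 0.55 (limma, adjusted p = 0.00285). SLC38A8 (XLOC_024491), a glutamine carrier, showed the reverse, with 10.2 and 4.82 CPM in MII oocytes, 30.6 and 8.88 in 2C and 11.1 and 12.3 in 4C embryos, and later 2.47 and 0.962 in 8C, 0 and 3.29 in 16C, 2.45 and 1.11 in EM, 0 and 0.714 in CM and 0 and 0 CPM in blastocysts. The measured CPM of the periods did not overlap, and stages differed (limma, adjusted p = 0.00127). The highest later value, in 16C replicate 2, rested on 2 reads. There 3 reads would make 4.94 CPM, above MII replicate 2, so at this depth the order of these samples is not settled. Of all loci tested between the periods 9.7% were lower without overlap, and SLC38A8 was not among the loci tested.

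SLC38A9 (XLOC_033447), which senses arginine in lysosomes for mTOR signalling, held 3.55 and 6.57 CPM in MII oocytes, 17.3 and 18.9 in 2C and 14.6 and 19.7 in 4C embryos, and later 6.19 and 6.73 in 8C, 7.73 and 14.8 in 16C, 14.7 and 19.4 in EM, 31.8 and 9.28 in CM and 30.4 and 26.4 CPM in blastocysts. Its log2 change of -0.16 with an SE of 0.41 (limma, adjusted p = 0.747) did not pass, and ranged from -0.39 to -0.05 with 1 sample left out. SLC38A7 (XLOC_024589), an exporter of glutamine from lysosomes, held 0 and 0 CPM in MII oocytes, 2.00 and 3.25 in 2C and 0 and 1.23 in 4C embryos, and later 4.95 and 9.62 in 8C, 1.55 and 8.23 in 16C, 2.45 and 2.21 in EM, 4.10 and 1.43 in CM and 11.8 and 10.3 CPM in blastocysts. It had too few reads for the test of the periods, and stages differed (limma, adjusted p = 0.0096). SLC38A6 (XLOC_003836), a less studied member, held 3.10 and 11.4 CPM in MII oocytes, 18.0 and 4.14 in 2C and 2.08 and 1.23 in 4C embryos, and later 3.71 and 0 in 8C, 0.773 and 1.65 in 16C, 1.63 and 0.554 in EM, 0 and 0.714 in CM and 8.84 and 4.40 CPM in blastocysts. Its stages differed as well (limma, adjusted p = 0.0375), although the periods overlapped.

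SLC36A1 (XLOC_063402), a proton-coupled carrier of small neutral amino acids, held 48.3 and 34.6 CPM in MII oocytes, 55.2 and 24.0 in 2C and 29.9 and 13.5 in 4C embryos. From 8C on it held 2.47 and 15.4 in 8C, 3.09 and 44.4 in 16C, 15.5 and 21.0 in EM, 29.7 and 7.85 in CM and 90.4 and 69.0 CPM in blastocysts. The higher 16C embryo was replicate 2, and both blastocysts lay above the 14 other samples. Stages differed (limma, adjusted p = 0.0359) and the periods did not differ by the test (log2 change -1.24, SE 0.61, limma adjusted p = 0.0776). Without 4C replicate 2, BL replicate 1 or BL replicate 2 it passed as lower after EGA (limma, adjusted p = 0.0428, 0.0296 and 0.0366). Scaled to total reads its log2 change was -0.76 (limma, adjusted p = 0.302). SLC43A1 (XLOC_017860), a facilitated carrier of branched-chain amino acids, had 1 read before EGA, in 4C replicate 2. Later it held 2.47 and 0 in 8C, 0.773 and 3.29 in 16C, 0 and 2.77 in EM, 8.20 and 0.714 in CM and 29.5 and 20.5 CPM in blastocysts. The blastocysts were the highest samples, and stages differed (limma, adjusted p = 0.00552).

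Between 4C and 8C, 10 of the 29 loci tested passed, 34.5% against 36.8% of all 9670 loci. SLC1A1 rose with a log2 change of 4.15 with an SE of 0.75 (limma, adjusted p = 0.000814). With 1 sample left out its log2 change ranged from 2.65 to 5.66, lowest without 8C replicate 1, and with the compared stages alone it did not pass (limma, adjusted p = 0.0985). SLC7A5 (3.34), SLC38A7 (2.64), SLC6A8 (2.25), SLC6A4 (2.11) and SLC7A6OS (1.98) rose too on the log2 scale, so that 20.7% rose, beside 17.7% of all loci tested. Of the 6 that rose, SLC7A6OS does not encode a transporter. With 1 or 2 reads in 4C, the fitted sizes of SLC7A5 and SLC38A7 depend on the pseudocount. In 8C they had 22 reads, 18 of them in replicate 1, and 14 reads, 10 of them in replicate 2. The loci that fell were SLC7A3, SLC7A2 (log2 change -4.07, SE 1.09, limma adjusted p = 0.00981), SLC6A5 (-3.07) and SLC38A8 (-2.39), or 13.8%, beside 19.1% of all loci. The median log2 change of the 29 loci was 0.52, and that of all loci tested -0.08. SLC7A8 did not pass (log2 change 2.73, SE 1.10, limma adjusted p = 0.0633), but did without 8C replicate 2, CM replicate 1 or CM replicate 2 (limma, adjusted p = 0.0288, 0.0325 and 0.0325). Leaving out 4C replicate 1, 4C replicate 2 or 8C replicate 1 left 4, 5 and 4 calls, and without 8C replicate 2 there were 11. Without 4C replicate 2 or 8C replicate 1, SLC7A2 did not pass (limma, adjusted p = 0.0613 and 0.133), nor did SLC7A5 (0.0598 and 0.208). Without 4C replicate 1, SLC7A5, SLC6A4 and SLC38A7 did not pass (0.132, 0.23 and 0.161), SLC6A4 was also lost without 8C replicate 1 (0.352) and SLC38A7 without 8C replicate 2 (0.0584). SLC38A7 did not pass in edgeR or DESeq2 (adjusted p = 0.0836 and 0.106), nor SLC7A5 with a pseudocount of 5 (limma, adjusted p = 0.0694). SLC6A8 was lost in 9 of the 16 fits with 1 sample left out, with adjusted p up to 0.324 without 8C replicate 1. Without the filter on low reads neither SLC6A8 nor SLC6A4 passed (limma, adjusted p = 0.0815 and 0.055), nor did SLC6A8 with the TMM scaling of edgeR (limma, adjusted p = 0.05). With 1 sample left out, the log2 changes ranged from 2.05 to 4.63 for SLC7A5, from 1.95 to 3.34 for SLC38A7, from 1.28 to 3.22 for SLC6A8 and from 0.95 to 3.28 for SLC6A4. They ranged from -6.12 to -2.03 for SLC7A2, from -5.01 to -1.13 for SLC6A5, from -2.94 to -1.84 for SLC38A8 and from 1.68 to 3.78 for SLC7A8. SLC7A6OS and SLC7A3 passed under every alternative run, whereas SLC6A5 and SLC38A8 were lost under most of them, edgeR and DESeq2 included.

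Between CM and blastocysts, 3 of the 29 loci passed, 10.3% against 4.42% of all loci tested. The share that rose was 3.45%, beside 2.92% of all loci, and the share that fell was 6.90%, beside 1.5%. Of the 2 loci that fell, 1 was SLC7A6OS, which does not encode a transporter. The median log2 change of the 29 loci was 0.70, and that of all loci tested 0.11. SLC7A4 rose with a log2 change of 4.55 with an SE of 0.78 (limma, adjusted p = 0.00289), and with no read in CM it was at least 16.8-fold higher (6.89 without CM replicate 2 and 9.89 without CM replicate 1). SLC7A4, the only locus called higher, had 21 and 15 reads in the blastocysts and at most 5 in any other sample. It thus passed the filter on low reads through the blastocysts alone. It did not pass in edgeR (adjusted p = 0.135), and DESeq2 gave it no adjusted p. SLC7A6OS fell with a log2 change of -4.05 with an SE of 0.47 (limma, adjusted p = 0.00026). SLC1A5 fell with a log2 change of -3.29 with an SE of 0.73 (limma, adjusted p = 0.0161), with -3.94 to -2.64 when 1 sample was left out, and this call was lost without CM replicate 1, CM replicate 2 or BL replicate 2 (limma, adjusted p = 0.0633, 0.126 and 0.225).

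Over the 29 loci tested, called or not, 11 had both blastocysts above both compact morulae (37.9%, against 31.7% of all loci tested) and 6 had both below (20.7%, against 17.8%). Of the 22 loci described that did not pass, 9 had both blastocysts above both compact morulae and 4 had both below. Those above were SLC6A20 (log2 change 3.36, SE 1.14, limma adjusted p = 0.118), SLC7A5 (log2 change 3.16, SE 1.06, limma adjusted p = 0.111), SLC43A1 (log2 change 2.63, SE 0.93, limma adjusted p = 0.133), SLC38A6 (log2 change 2.46, SE 0.99, limma adjusted p = 0.199) and SLC36A1 (log2 change 2.12, SE 0.93, limma adjusted p = 0.239). The others above were SLC1A3 (log2 change 2.11, SE 1.68, limma adjusted p = 0.57), SLC38A7 (log2 change 1.67, SE 0.79, limma adjusted p = 0.276), SLC1A1 (log2 change 1.51, SE 0.75, limma adjusted p = 0.309) and SLC6A4 (log2 change 0.73, SE 0.72, limma adjusted p = 0.666). Those below were SLC7A6 (log2 change -1.87, SE 0.79, limma adjusted p = 0.222), SLC38A11 (log2 change -1.75, SE 0.96, limma adjusted p = 0.367) and SLC6A8 (log2 change -1.57, SE 0.81, limma adjusted p = 0.334), the latter also at its second locus (log2 change -1.85, SE 0.75, limma adjusted p = 0.2). With a pseudocount of 5, SLC6A20, SLC7A5 and SLC43A1 also passed, and SLC7A5 passed without CM replicate 1 (limma, log2 change 4.52, adjusted p = 0.0487). Without CM replicate 2 its log2 change was 1.80 (limma, adjusted p = 0.652), and edgeR and DESeq2 gave adjusted p = 0.246 and 0.229. With 1 sample left out, the log2 change of SLC43A1 ranged from 1.45 to 3.80 and that of SLC36A1 from 1.35 to 2.90, both lowest without CM replicate 2. The change of SLC7A6 ranged from -2.66 to -1.08, nearest to 0 without BL replicate 1 and next without CM replicate 1 (-1.20), and that of the second locus of SLC6A8 was -2.83 without BL replicate 1 and -0.87 without BL replicate 2. None of these passed. Apart from SLC7A5, the log2 changes of the other uncalled loci above or below moved by less than 1.5 times when 1 sample was left out, and with a pseudocount of 5 SLC38A6 and SLC38A7 were at 1.11 and 1.05. The summed trophectoderm markers were 191 and 40.0 CPM in CM and 1486 and 1439.9 CPM in blastocysts, and their part in these differences was not tested.

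**Figure D4:**
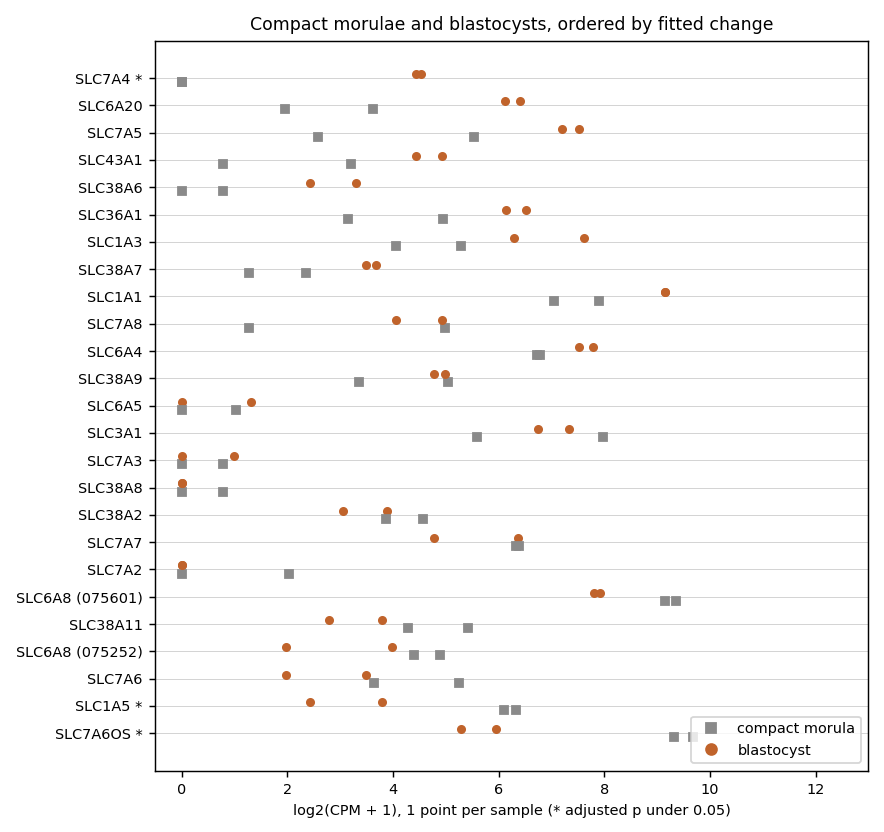
Levels of the 25 loci as log2(CPM + 1) in the 2 compact morulae (grey squares) and 2 blastocysts (orange circles), ordered by the fitted change, with an asterisk where the adjusted p was under 0.05. At the top SLC7A4, SLC6A20 and SLC7A5 have both circles to the right of both squares, and at the bottom SLC7A6OS and SLC1A5 have them to the left.

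Other genes of amino acid handling were compared before against after EGA in the same fit, with levels as mean ± SD (n = 6 before and n = 10 after). Among 10 tested loci for amino acid sensing to the kinase complex mTORC1, 5 fell and none rose, beside 29.9% and 36.9% of all loci tested, and scaled to total reads 4 fell. By limma none rose at an unadjusted p under 0.05 either, and none rose by edgeR or DESeq2. The largest falls were those of RRAGD, a subunit of the Rag GTPases (23.8 ± 12.7 to 1.06 ± 2.51 CPM, log2 change -4.40, SE 0.55, limma adjusted p = 5.9e-07), and SESN3, a sestrin (23.7 ± 6.64 to 1.19 ± 2.06 CPM, log2 change -4.40, SE 0.51, limma adjusted p = 1.9e-07).

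Of 6 tested loci of the response to amino acid scarcity, 3 rose (4 scaled to total reads) and none fell, so that 50% rose, beside 36.9% of all loci tested, and none, beside 29.9%, fell. None fell at an unadjusted p under 0.05 by limma, or by edgeR or DESeq2, either. ATF3, a transcription factor of this response, rose (2.04 ± 2.37 to 19.9 ± 14.8 CPM, log2 change 2.44, SE 0.69, limma adjusted p = 0.00378). The translation factor subunit EIF2S1 rose (22.6 ± 13.8 to 105 ± 45.7 CPM, log2 change 1.85, SE 0.35, limma adjusted p = 0.000109). For amino acid synthesis, 3 of 14 tested loci rose (21.4%, beside 36.9% of all loci) and 4 fell (28.6%, beside 29.9%). The glutaminase GLS2 was among those that rose (26.8 ± 26.8 to 115 ± 76.5 CPM, log2 change 1.86, SE 0.57, limma adjusted p = 0.00649).

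PSPH, the last enzyme of serine synthesis (46.7 ± 21.2 to 5.13 ± 4.30 CPM, log2 change -3.60, SE 0.44, limma adjusted p = 4.1e-07), and CTH, the last enzyme of cysteine synthesis (21.9 ± 10.5 to 3.12 ± 4.40 CPM, log2 change -3.58, SE 0.61, limma adjusted p = 3.0e-05), fell most. Of 5 tested mitochondrial carriers 1 rose (20%, beside 36.9% of all loci) and 3 fell (60%, beside 29.9%, and 2 scaled to total reads). SLC25A39 rose (2.11 ± 2.20 to 14.9 ± 14.0 CPM, log2 change 1.81, SE 0.69, limma adjusted p = 0.0261), and the aspartate and glutamate carrier SLC25A13 fell most (152 ± 64.0 to 63 ± 38.8 CPM, log2 change -2.10, SE 0.61, limma adjusted p = 0.00488), followed by the ornithine carrier SLC25A15 (19.2 ± 8.68 to 7.96 ± 5.70 CPM, log2 change -1.85, SE 0.48, limma adjusted p = 0.0019). Of other transporters of amino acids or peptides, 2 loci could be tested. CTNS, the lysosomal cystine exporter, rose (495 ± 284 to 2334 ± 1179.7 CPM, log2 change 1.85, SE 0.40, limma adjusted p = 0.00035). None of 3 loci of partner proteins of transporters had enough reads for the test.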

How the data were processed

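Single oocytes and embryos were sequenced by the authors on the SOLiD platform after 2 rounds of RNA amplification. The submitters' processing notes name cutadapt, FastQC, TopHat, Cufflinks and HTSeq. The genome build, the counting mode and the rule for reads with several places are not given in the sources used here. The deposited values are a signal per locus, that is read counts divided by the authors by 1 size factor per sample. Dividing a sample by its smallest non-zero value turned 100% of its values into whole numbers (tolerance 0.02), which were taken as reads.

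Tests ran in limma 3.58.1 (R 4.3.3) with a trend and empirical Bayes moderation on log2 of the deposited values plus 1. A filter on low reads (filterByExpr of edgeR) kept 9670 loci for 8 stages and 6910 for the periods, and p-values were adjusted over these by Benjamini-Hochberg. The main test was limma because the values are scaled, with edgeR 4.0.16 and DESeq2 1.42.0 on recovered reads as alternatives. Other alternatives were pseudocounts of 0.5 and 5, no filter, other scalings, the replicate block, each sample left out, both 8C samples left out, the compared stages alone and summed loci. The test was checked on simulated counts. Pooled ratios carry exact 95% intervals for counting error. Plots and tables used Python 3.11.15.

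The members and gene lists were chosen with earlier results of these data known. Described in full are loci with a stage mean of at least 10 CPM, with changes at EGA for all of them that were tested and changes of the 2 stage steps mainly for those past the threshold. From each pathway list, the 2 largest rises and falls are named, apart from items that are not reported here. Of the 60 names, 59 matched the RefSeq table. No sequences were used here.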

Additional observations from a re-analysis of the deposited data

Results flagged for a closer look

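Within the 6 samples before and the 10 after EGA, the gap between the most extreme sample and its nearest neighbour was compared with the range of the group on the log2(deposited value + 1) scale, for the 25 loci described. A sample stood out in 6 of 48 such groups. Chance gives about 1 in 20 for samples of one population, a rate that does not carry over to these groups, which pool 3 or 5 stages. In MII replicate 2, SLC7A7 was the lowest before EGA at 0.876 CPM, and the second locus of SLC6A8 (XLOC_075252) was the lowest there too, at 1.31 CPM. After EGA that second locus was lowest in BL replicate 2, at 2.94 CPM. In 8C replicate 2, the sample with oocyte markers, SLC1A1 was the lowest after EGA at 22.1 CPM and SLC38A2 at 0 CPM. For SLC43A1 the value that stood out was the single read of 4C replicate 2, 0.615 CPM, with none in the other 5 samples before EGA, and a single read among zeros meets the criterion by construction.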

How the results depend on the processing

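The numbers of loci called are given as main value and alternatives. For the stage effect (21 loci), alternatives gave 19 to 21, and leaving out 1 sample 15 (without BL replicate 2) to 21. Before against after EGA (10 loci), other settings gave 10 or 11 and leaving out 1 sample 10 to 11, but without a filter on low values 16 loci were called (10 higher and 6 lower of 45, or 22.2% and 13.3%, against 18.4% and 20.2% of all loci), the additions being SLC7A3, SLC38A8, SLC38A6, SLC7A1, SLC43A1 and SLC38A7. For 8C against 4C (10 loci) the number was 2 with the compared stages alone, and 4 to 11 when 1 sample was left out. For BL against CM (3 loci) it was 6 with a pseudocount of 5, 2 to 3 when 1 sample was left out, and 0 by limma with the compared stages alone, where 10 loci had an unadjusted p under 0.05. edgeR and DESeq2 in the model of 8 stages gave 2 loci each, with DESeq2 giving an adjusted p for 20 of the 29. Where leaving out a sample left 1 at a stage, that sample was assumed to vary like the others.

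With the replicate block the numbers were 21, 10, 8 and 3 for the 4 comparisons, against 21, 10, 10 and 3. The labels number the replicates within a stage and do not pair them. Differences between replicate 1 and 2 correlated from -0.26 to 0.13 between stages, above 0.1 for 1 of 28 pairs of stages, so same-numbered samples share only a number. Under the block SLC38A8 and SLC6A5 lost their calls from 4C to 8C.

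The 10 loci called at EGA kept direction and call in every alternative run. Signs turned only for changes that did not pass. SLC7A7 at EGA, 0.08 on the log2 scale, became -0.064 with a pseudocount of 5, -0.59 by edgeR, -0.39 by DESeq2 and -0.23 without both 8C samples. Leaving out 1 sample gave SLC7A7 -0.79 to 0.42, below 0 without MII replicate 2 or either 8C sample. SLC7A6, at 0.039, became -0.15 without both 8C samples and -0.31 to 0.34 when 1 sample was left out. SLC6A20, at -1.17, became 0.18 by edgeR and 0.40 by DESeq2. SLC38A9, at -0.16, became 0.29 scaled to total reads and 0.044 without both 8C samples. SLC1A3 from 4C to 8C ranged from -0.43 to 7.44, below 0 without 8C replicate 1. The cause was not tested.

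Depth limits loci below about 10 CPM, where 3 reads in the shallowest sample already make 4.94 CPM. With 2 samples per stage, single stage steps rest on the spread pooled over all stages.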
